A study of Sus scrofa with 9 samples.

Results

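The cytosolic ribosomal protein genes were chosen by symbol, as RPL or RPS followed by a number with an optional suffix, together with RPLP0, RPLP1, RPLP2 and RPSA. This rule found 82 of 18933 genes in the first table, which compared Obese-MSCs with Lean-MSCs, 50 of the large ribosomal subunit and 32 of the small subunit. It found 81 of 18992 genes in the second, which compared vitamin-C-treated with untreated Obese-MSCs, with RPL18 the gene that was listed only in the first. The rule itself used no measured value, but the set was chosen with earlier results of these data known.

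The study asked whether a diet that causes obesity and dyslipidemia changes DNA hydroxymethylation in mesenchymal stem/stromal cells (MSCs), and whether vitamin-C in culture alters those marks. All libraries came from primary MSCs of female domestic pigs, aged 3 months at the start of the diets, which were expanded in culture from subcutaneous abdominal fat. Lean-MSCs (n = 3, numbered 7, 8 and 9 in the labels) came from pigs on standard chow. Obese-MSCs came from pigs on a high-fat/high-fructose diet for 16 weeks, and at the third passage were cultured untreated (n = 3, numbered 1, 2 and 3) or incubated for 48 h in vitamin-C (50 µg/mL) (n = 3, numbered 4, 5 and 6). The untreated Obese libraries stood in both tables, which the authors normalized separately, so the 2 comparisons shared these libraries and each was made within its table. Which pig each treated or untreated culture came from is not in the labels.

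Ribosomal proteins assemble with ribosomal RNA into the large subunit, which forms peptide bonds, and the small subunit, which reads the messenger RNA. Their genes are short housekeeping genes, spread over the genome and transcribed at high rates in growing cells, and mammalian genomes also hold many processed copies of them that no longer make protein. 5-hydroxymethylcytosine (5hmC) is formed from 5-methylcytosine by the TET enzymes, for which vitamin-C is a cofactor, and in gene bodies it is generally found with active transcription. The assay, hMeDIP-seq, captures DNA fragments that carry 5hmC with an antibody and sequences them. The values are normalized counts of reads over all exons of a gene, so they report a DNA mark and not the amount of messenger RNA or protein.

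In the first table a library summed to 494566 to 522269 normalized counts, and in the second to 547242 to 593846. In some libraries the authors' normalization left low values in steps of about 1 normalized count per read, and in others the steps were unclear. In the first table, 100% of low values in Lean library 8 lay within 0.1 step, but 34.8% in Obese library 1. Where the steps held, a gene at 5 rested on only a few reads. Values of single libraries are given in the order of their numbers. For instance, RPLP2, RPL10L, RPS14 and RPS28 listed the same set of 3 Lean values. In Obese-MSCs and Lean-MSCs, respectively, the genes of the MSC surface markers NT5E, THY1 and ENG had mean levels of 30.9 and 26.9, 21.8 and 17.1, and 57.3 and 40.4 normalized counts. The genes of markers that MSCs lack, CD14, CD34 and PTPRC, had means of 2.02 and 0, 18.7 and 17.8, and 46.9 and 59.3. A DNA mark therefore gave no check of surface expression. Reads that fit a ribosomal protein gene and a processed copy equally well cannot be told apart in these values.

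The ribosomal protein genes carried little exonic 5hmC per gene. In Lean-MSCs the median gene of the group had 6.64 normalized counts against 12.6 over all genes, and 26 of the 82 (31.7%) had a mean of 3 or less, against 16.5% of all genes. Means ranged from 0.336 for RPL10L, RPLP2, RPS14 and RPS28 to 90.8 for RPS3. These genes are short, with a median span from start to end in Sscrofa11.1 of 3.98 kb against 21.6 kb, and per kb of span the order was the opposite, with a median Lean level of 1.64 normalized counts per kb against 0.548 over all genes. Span includes introns, which the counts do not, and exon lengths were not used here.

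Of the 56 ribosomal protein genes with a Lean mean above 3, RPL4, which lines the peptide exit tunnel, had the highest Lean level per kb of span at 14.2 ± 2.59 normalized counts (SD, n = 3). RPLP0, the base of the stalk that recruits elongation factors, followed at 11.0 ± 2.61, and RPL15, a protein of the large subunit core, at 10.8 ± 2.97. RPLP0 and RPL15 differed by less than 1 SD, and RPL4 lay above RPLP0 by more than 1 SD although their libraries overlapped. The small-subunit gene RPS2 had 6.87 ± 0.540 per kb. The lowest level per kb was that of RPL3L, the striated muscle paralogue of RPL3, at 0.266 ± 0.146. RPS9 at 0.504 ± 0.466 and RPL22 at 0.535 ± 0.290 were next to last, with SDs larger than the gaps between them.

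Replicate spread was wide at these levels. Among the 51 ribosomal protein genes with a 6-library mean between 3 and 30 in the first table, the median coefficient of variation between libraries of a group was 35.0%, against 32.8% for all genes in that range. In the second table it was 35.1% over 53 of them, against 34.9%.

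The summed exonic 5hmC of all 82 genes differed between Obese- and Lean-MSCs by less than the spread between libraries. It made up 0.224%, 0.211% and 0.180% of the library total in Obese libraries 1, 2 and 3, and 0.218%, 0.203% and 0.187% in Lean libraries 7, 8 and 9. The ranges overlapped, and the means were 0.205% ± 0.0226 and 0.203% ± 0.0153 (SD, n = 3 each). On normalized counts the log2 ratio of the summed level, Obese-MSCs over Lean-MSCs, was 0.05, with 0.00 for the large subunit and 0.12 for the small subunit.

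**Figure D1:**
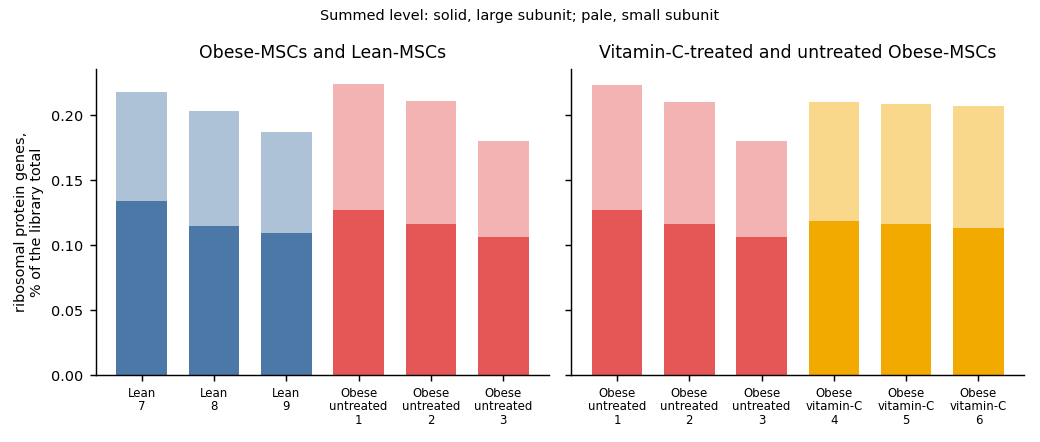
Summed exonic 5hmC of the ribosomal protein genes as a percent of each library's total normalized count, with bars starting at 0 and split into large subunit (solid) and small subunit (pale). The 9 libraries, of which the 3 untreated Obese ones appear in both panels, lay between 0.180% and 0.224%, and Obese library 3 was the lowest in either table.

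Gene by gene, the Obese mean was above the Lean mean in 42 of 82 (51.2%), as in 51.2% of all genes. The log2 ratio of group means had a median of 0.01 over the 82 and of 0.01 over all genes. With 51 genes above 3 in both groups, the ratio ran from -0.76 to 0.69, with RPS15A the lowest. Of the large-subunit genes 24 of 50 were higher in Obese-MSCs and of the small-subunit genes 18 of 32.

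**Figure D2:**
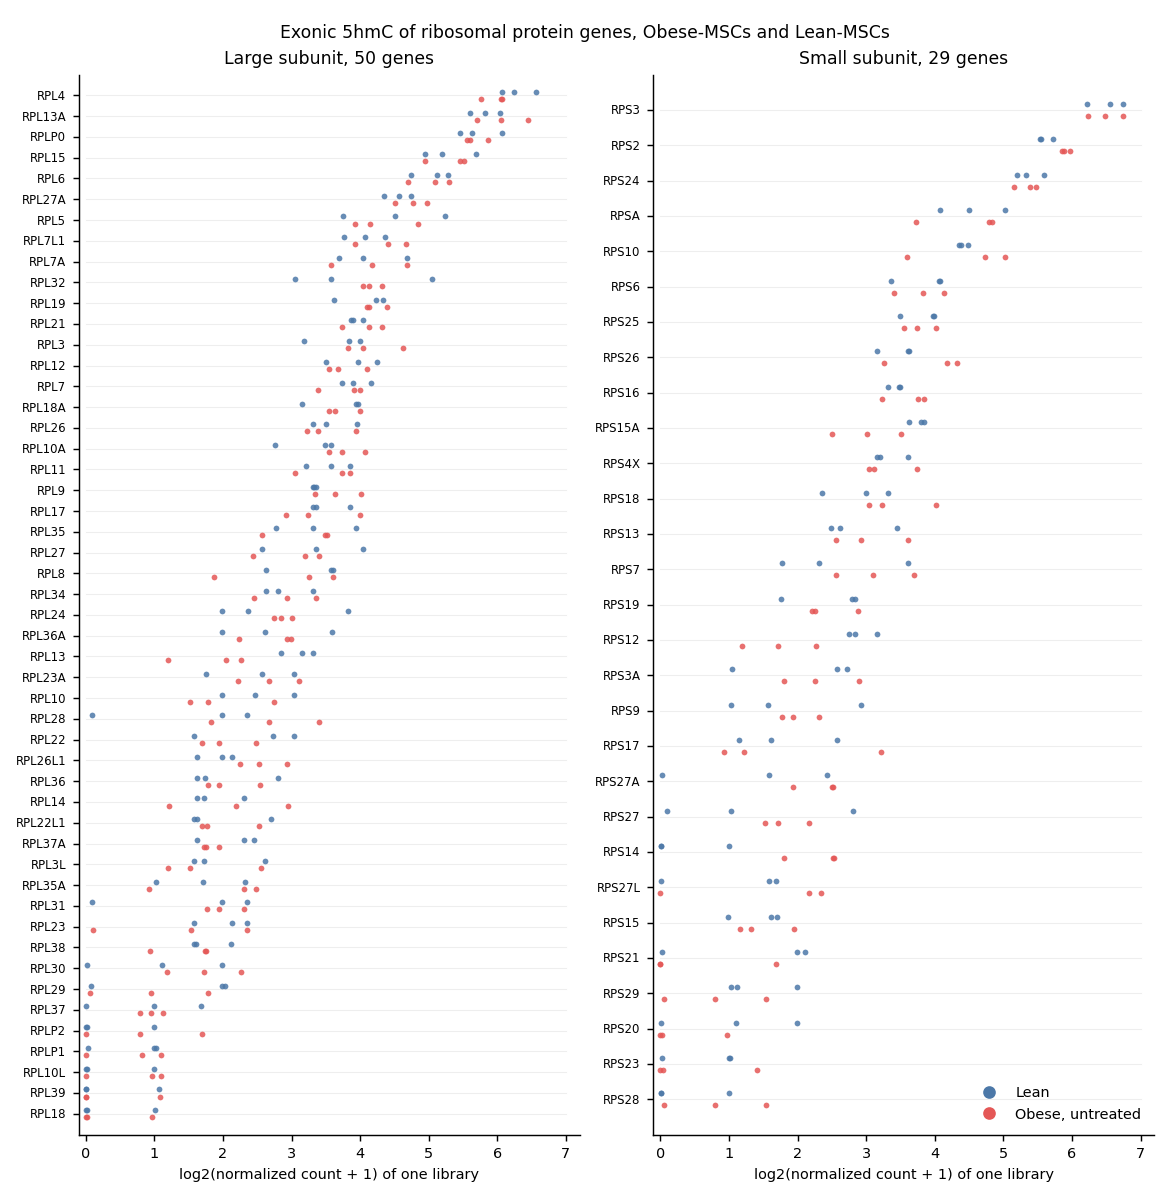
Exonic 5hmC of 79 of the 82 ribosomal protein genes in the 3 Lean (blue) and 3 untreated Obese (red) libraries, as log2(normalized count + 1) of 1 library per point, ordered by mean within each subunit. Libraries of the groups intermingled in most genes, and separated in 6, among them RPL13, RPS12 and RPS15A, with all Obese points below all Lean points.

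By the paper's own criteria (a ratio between group means of 1.4 or more, or 0.7 or less, with an unadjusted two-sided p-value of 0.05 or less from a test with equal variances), 4 of the 82 genes (4.88%) had altered 5hmC in Obese-MSCs versus Lean-MSCs, where 4.5% of all genes had. Low 5hmC in Obese-MSCs was called for 3, RPL13, RPS12 and RPS15A, with 2.43% of all genes called low. High 5hmC was called for 1, RPS14, with 2.07% of all genes called high. The share of ribosomal protein genes called was therefore close to the share in the whole table. As recomputed here, 391 of 18933 genes were called high and 461 low. The paper reports more genes in each direction, so its counts were not reproduced. The cause of that gap was not tested. All calls and shares given here are therefore those of the recomputation. Libraries of the groups did not overlap in 6 of the 82 (7.32%), against 11.8% of all genes, with Obese-MSCs higher in 3 (3.66%, against 5.7% of all genes) and lower in 3 (3.66%, against 6.06%). With limma on log2(normalized count + 1), none of the 52 ribosomal protein genes that passed the filter on low values passed a threshold of 0.05 after Benjamini-Hochberg adjustment. The smallest adjusted p among them was 0.679, and 2 of them had an unadjusted limma p of 0.05 or less (3.85%, against 6.81% of all genes tested, none of which passed after adjustment).

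RPL13, a large-subunit protein gene on chromosome 6 (410923 to 413396 in Sscrofa11.1), had 3.12, 3.81 and 1.29 normalized counts across the Obese libraries, against 7.91, 8.94 and 6.18 across the Lean libraries. Every Obese library lay below every Lean library. The means were 2.74 ± 1.31 and 7.68 ± 1.39 (SD, n = 3 each), a difference of -4.94 normalized counts that stayed between -5.68 and -4.21 and past the criteria with each library left out in turn. Its two-sided exact permutation p was 0.1, the smallest that 3 libraries against 3 allow, and its limma adjusted p was 0.679. RPS12, a small-subunit protein gene on chromosome 1 (30920804 to 30923392), had 2.29, 3.82 and 1.27 normalized counts across the Obese libraries, against 5.71, 7.95 and 6.17 across the Lean libraries. The groups again did not overlap, with means of 2.46 ± 1.28 and 6.61 ± 1.18 (SD, n = 3 each), exact permutation p = 0.1 and a limma adjusted p of 0.703. Without Obese library 1, RPS12 no longer met the criteria, at a difference of -4.06 against -4.15 with all libraries. Because the Obese means of both genes were under 3, no fold change is given.

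RPS15A, a small-subunit protein gene on chromosome 3 (26776661 to 26783491) that is among those mutated in Diamond-Blackfan anaemia, had 10.4, 4.68 and 7.10 normalized counts across the Obese libraries. Its Lean libraries had 11.4, 12.9 and 13.4. The highest Obese library came within about 1 normalized count of the lowest Lean library. The means were 7.38 ± 2.85 and 12.5 ± 1.04 (SD, n = 3 each), a log2 ratio of -0.76, with exact permutation p = 0.1 and a limma adjusted p of 0.744. This call was the least stable of the 4, since it was lost on leaving out any 1 library other than Obese library 1, at log2 ratios from -0.83 to -0.52, and was kept without that library, at -1.09.

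RPS14, a small-subunit protein gene lost in a deletion form of myelodysplastic syndrome, was the one called high. It had 4.71, 4.75 and 2.47 normalized counts across the Obese libraries, against 0.01, 0.99 and 0.00 across the Lean libraries, that is, about the value of 1 read in 1 Lean library and close to 0 in the others. The means were 3.98 ± 1.31 and 0.336 ± 0.571 (SD, n = 3 each), a difference of 3.64 that stayed between 3.26 and 4.40 and past the criteria with each library left out, with exact permutation p = 0.1. RPS14 was too low for the limma fit. It lies on chromosome 2 (151430047 to 151433951) and overlaps NDST1 in the annotation, and exons that overlapping genes share could not be separated in these values.

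**Figure D3:**
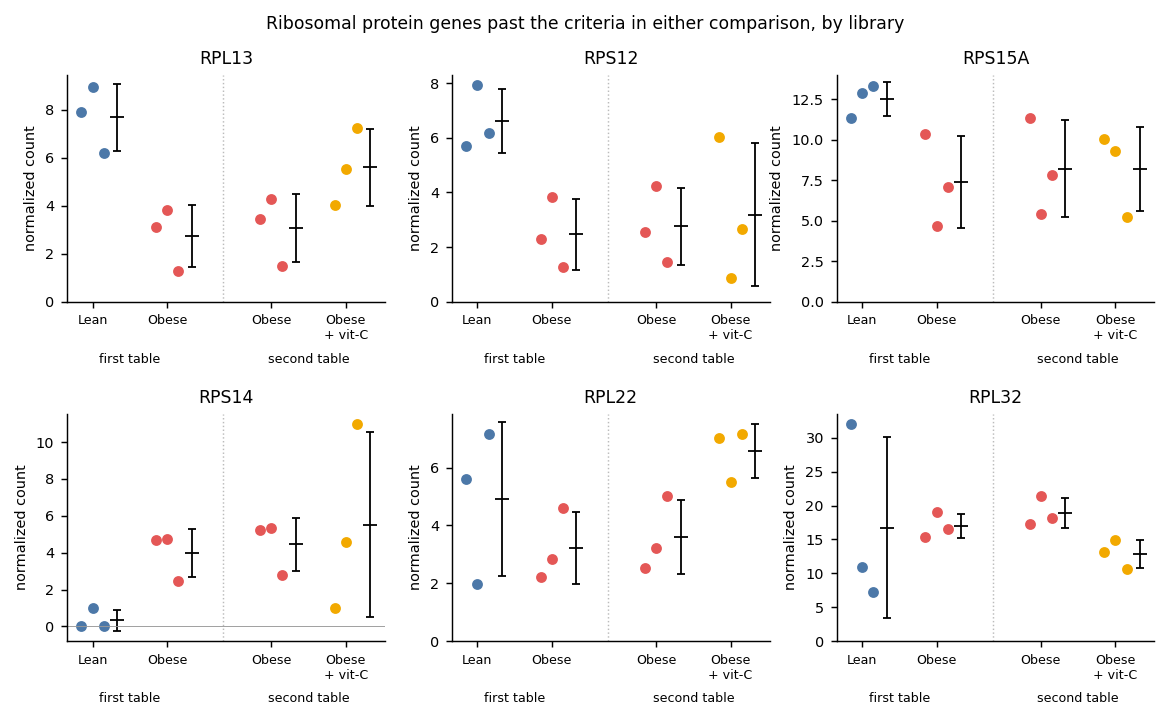
Normalized counts by library, with mean ± SD beside them (n = 3), for the 6 ribosomal protein genes past the criteria in either comparison, with Lean and untreated Obese libraries of the first table left of the dotted line and untreated and vitamin-C-treated Obese libraries of the second table right of it. RPL13, RPS12 and RPS15A were lower and RPS14 higher in Obese-MSCs, while RPL22 was higher and RPL32 lower with vitamin-C, and the called genes had few normalized counts, at most 21.4 in any Obese library.

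Two-sided p-values of 0.05 or less without a fold threshold were found for 5 of the 82 genes (6.10%, against 6.04% of all genes), the fifth being RPS2. RPS2, a small-subunit protein gene near the messenger RNA entry, had 61.5, 57.8 and 56.6 normalized counts across the Obese libraries, against 51.9, 45.7 and 45.2 across the Lean libraries. Each Obese library was above each Lean library, but the ratio of means was 1.23, under the fold threshold. The limma log2 difference was 0.30 ± 0.23 (SE) with an adjusted p of 0.862. RPS2 (chromosome 3, 39996179 to 40003110) overlaps NDUFB10 and RNF151 in the annotation and lies 1.80 kb from RPL3L, which also overlaps NDUFB10. RPL3L itself had 4.88, 1.87 and 1.29 normalized counts across the Obese libraries, against 2.32, 1.98 and 5.11 across the Lean libraries, which overlapped. The sixth gene without overlap was RPL26L1, a near copy of RPL26, with 3.75, 6.67 and 4.74 normalized counts across the Obese libraries, against 3.37, 2.98 and 2.06 across the Lean libraries.

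Away from the called genes, the groups overlapped in the genes described here that had large ratios of group means. RPS18 and RPS26, of the small subunit, and RPL3, of the large subunit, had log2 ratios of 0.63, 0.55 and 0.53, with limma adjusted p-values of 0.858, 0.866 and 0.835. On the low side RPL22, RPL10 and RPL27 had log2 ratios of -0.61, -0.56 and -0.43 with adjusted p-values of 0.926, 0.909 and 0.929. RPL32 shows what 1 library could do. It had 32.1 normalized counts in Lean library 7 and 10.9 and 7.26 in the other Lean libraries, and its log2 ratio was 0.02 with all libraries and 0.90 without Lean library 7.

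**Figure D4:**
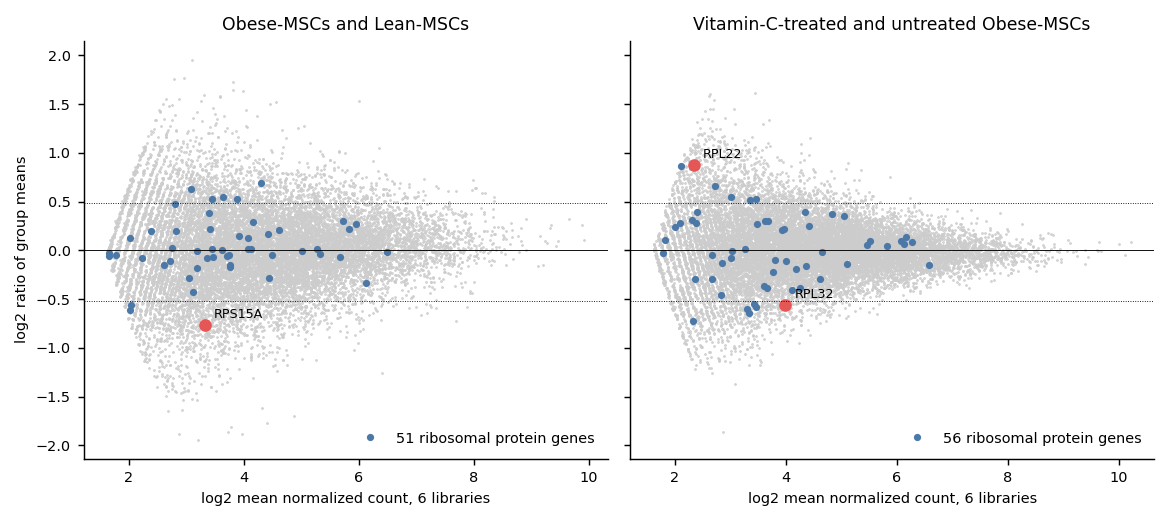
Log2 ratio of group means against log2 of the mean normalized count over 6 libraries, for genes with both group means above 3 (grey, all genes; blue and red, ribosomal protein genes, red for those past the criteria), with dotted lines at the fold thresholds of 1.4 and 0.7. The 51 ribosomal protein genes of the first comparison and the 56 of the second lay within the cloud of all genes, from -0.76 to 0.69 and from -0.72 to 0.87, and RPL13, RPS12 and RPS14 are not drawn in the first comparison, nor RPS12 in the second, because a group mean was 3 or less.

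Genes with known roles at defined places of the ribosome are given next. At the stalk, RPLP0 (57.0, 47.4 and 46.1 normalized counts across the Obese libraries, 66.4, 42.7 and 48.3 across the Lean libraries) was among the highest of the group, whereas its partners RPLP1 and RPLP2 had no library above 2.25 in this table. RPS3, at the entry of the messenger RNA, had 106, 88.2 and 74.5 normalized counts across the Obese libraries, against 73.7, 106 and 92.4 across the Lean libraries, with a log2 ratio of -0.02. RPSA, which is also known as the laminin receptor, had 27.5, 26.6 and 12.2 across the Obese libraries and 31.3, 15.9 and 21.6 across the Lean libraries. For none of these genes did the groups separate. RPS6, the target of S6 kinase, had means of 13.2 ± 3.47 and 13.6 ± 3.77 in Obese-MSCs and Lean-MSCs, respectively (SD, n = 3 each). RPL5 and RPL11, which together bind the ubiquitin ligase MDM2, had 19.5 ± 7.25 against 23.7 ± 12.3 and 11.0 ± 3.26 against 10.9 ± 2.61. RPL13A, also part of an interferon-induced translational silencing complex, had 67.5 ± 17.6 against 56.0 ± 8.51, and RPS19, the gene most often mutated in Diamond-Blackfan anaemia, 4.59 ± 1.55 against 4.83 ± 2.12. In the whole list of 19 Diamond-Blackfan genes, RPS15A was the only one past the criteria, which 4.5% of all genes met, and 10 of the 19 (52.6%, against 51.2% of all genes) had a higher mean in Obese-MSCs.

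Paralogues of ribosomal proteins, some of which are used in particular tissues, were compared with their parent genes as levels per gene only. RPL7L1, a paralogue of RPL7 that is known from precursor ribosomes, was as high as its parent, with Lean means of 16.0 ± 3.45 and 14.4 ± 2.29 normalized counts (SD, n = 3 each). The Lean means of RPL3L, RPL22L1 and RPL26L1 were 3.14, 3.19 and 2.80, against 12.1, 4.92 and 11.3 for RPL3, RPL22 and RPL26. RPL10L, the autosomal, testis-expressed copy of the X-linked RPL10, had 0.00, 0.95 and 1.15 normalized counts across the Obese libraries, against 0.01, 0.99 and 0.00 across the Lean libraries. RPS27L and its parent RPS27 had Lean means of 1.41 and 2.36. Of the 6 paralogues in the table none met the criteria in either comparison. Of all genes, 4.5% met them in the first comparison and 1.92% in the second. RPL39 had at most 1.12 normalized counts in any library of the first table, and RPL39L was not among the genes analysed here. On the X chromosome, the means of RPS4X were 9.07 ± 2.88 normalized counts (Obese-MSCs) and 9.13 ± 1.81 (Lean-MSCs).

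The genes were dispersed, with at most 11 on 1 chromosome (chromosomes 1 and 6). The low-called genes RPL13, RPS12 and RPS15A stood on 3 different chromosomes. In the annotation 14 of the 82 genes overlap another gene, and RPL18 has 2 loci, on chromosomes 1 and 6.

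With vitamin-C, the summed level of the 81 genes differed from that of untreated Obese-MSCs by less than the spread between libraries. It was 0.210%, 0.209% and 0.207% of the library total in treated libraries 4, 5 and 6, and 0.223%, 0.210% and 0.180% in untreated libraries 1, 2 and 3. The treated libraries lay inside the range of the untreated ones, with means of 0.209% ± 0.00133 and 0.204% ± 0.0220 (SD, n = 3 each), and the log2 ratio of the summed normalized counts was 0.02. The treated mean was the higher in 43 of 81 genes (53.1%, against 51.2% of all genes), with 21 of 49 in the large subunit and 22 of 32 in the small subunit. The median log2 ratio was -0.10 over the large-subunit genes, 0.24 over the small-subunit genes, 0.05 over all 81 and 0.00 over all genes of the table. Whether the subunits differ was not tested.

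**Figure D5:**
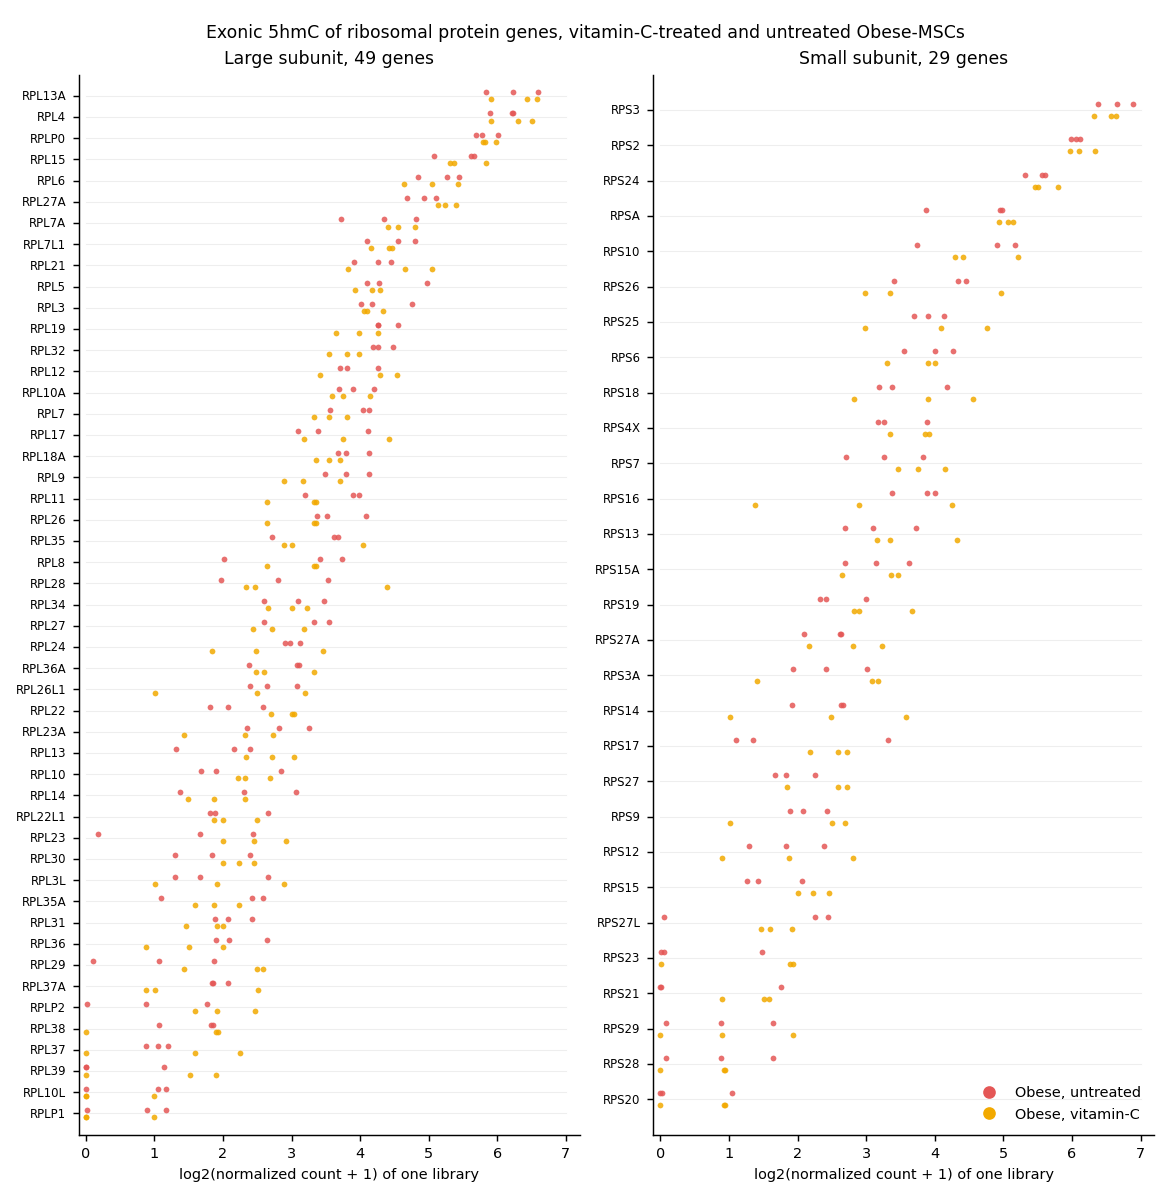
Exonic 5hmC of 78 of the 81 ribosomal protein genes in the 3 untreated (red) and 3 vitamin-C-treated (orange) Obese libraries, as log2(normalized count + 1) of 1 library per point, ordered by mean within each subunit. The libraries separated in 4 genes, upward with vitamin-C in RPL22 and RPL27A and downward in RPL32 and RPL26.

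Past the criteria were 2 of the 81 genes (2.47%), where 1.92% of all genes were, with RPL22 high (1.11% of all genes called high) and RPL32 low (0.806% called low). Again this share was near that of the whole table. The same 2 met the p-value threshold alone (2.47%, against 2.64% of all genes). Libraries did not overlap in 4 genes (4.94%, against 5.91% of all genes), with vitamin-C higher in 2 (2.47%, against 3.24%) and lower in 2 (2.47%, against 2.67%). With limma, none of the 53 genes that passed the filter had an adjusted p of 0.05 or less, and none had an unadjusted p of 0.05 or less, which 0.974% of all tested genes had. The smallest limma adjusted p-value of the table was 1.00 after rounding.

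RPL22, an RNA-binding protein of the large subunit, on chromosome 6 (67092892 to 67102086), had 7.04, 5.52 and 7.18 normalized counts in the treated libraries and 2.53, 3.23 and 5.02 in the untreated libraries. The lowest treated library was just above the highest untreated library. The means were 6.58 ± 0.919 and 3.59 ± 1.29 (SD, n = 3 each), a log2 ratio of 0.87 with exact permutation p = 0.1 and a limma adjusted p of 1.00. The call was kept only without treated library 5 or untreated library 3, and was lost without any of the others at log2 ratios from 0.67 to 0.82. In the first table RPL22 had 2.22, 2.83 and 4.61 normalized counts across the Obese libraries, against 5.62, 1.98 and 7.16 across the Lean libraries, with Lean library 8 below all Obese libraries.

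RPL32, a large-subunit protein gene on chromosome 13 (68788109 to 68793265), had 13.1, 14.9 and 10.7 normalized counts in the treated libraries and 17.2, 21.4 and 18.2 in the untreated libraries. No treated library reached the lowest untreated one. The means were 12.9 ± 2.10 and 18.9 ± 2.20 (SD, n = 3 each), a ratio of 0.679, just within the threshold of 0.7, and a log2 ratio of -0.56 with exact permutation p = 0.1 and a limma adjusted p of 1.00. The call was kept only without treated library 5 or untreated library 1, and was lost without any of the others at log2 ratios from -0.59 to -0.44.

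RPL27A, a large-subunit protein gene, had 41.2, 34.2 and 36.7 normalized counts with vitamin-C and 29.4, 24.7 and 33.4 without. RPL26, whose product lies near the peptide exit, had 9.05, 9.29 and 5.27 with vitamin-C and 9.39, 16.0 and 10.5 without. The libraries of both genes separated, at log2 ratios of 0.36 and -0.60, but neither gene met the p-value criterion. The other genes at the ends of the range overlapped between treatments. On the low side these were RPL23A, RPL11 and RPL9, with log2 ratios of -0.72, -0.64 and -0.58, and on the high side RPL13, RPS19 and RPL28, with 0.87, 0.66 and 0.55. RPL28 rested on 1 library, as it had 4.03, 4.51 and 20.1 normalized counts with vitamin-C, and its log2 ratio was -0.61 without treated library 6.

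The 4 genes called in Obese-MSCs versus Lean-MSCs were not called with vitamin-C. RPL13 had 4.03, 5.55 and 7.22 normalized counts in the treated libraries and 3.46, 4.26 and 1.48 in the untreated ones, which overlapped (exact permutation p = 0.2). RPS12 had 6.03, 0.86 and 2.66 with vitamin-C and 2.57, 4.25 and 1.45 without. RPS15A had 10.1, 9.28 and 5.26 with vitamin-C and 11.4, 5.43 and 7.84 without, with nearly equal means of 8.20 and 8.22. The values of RPS14 were 1.01, 4.60 and 11.0 with vitamin-C and 5.21, 5.34 and 2.79 without, so that the treated libraries held both its lowest and its highest value. In all 4 genes the treated and untreated libraries overlapped.

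At the role-defined genes, RPS3 had means of 90.3 ± 10.4 with vitamin-C and 99.8 ± 17.9 without, RPLP0 57.5 ± 4.26 and 55.8 ± 6.53, and RPL13A 79.6 ± 18.2 and 75.2 ± 19.6 normalized counts (SD, n = 3 each). RPSA had 34.2, 32.4 and 29.5 normalized counts in the treated libraries and 30.4, 30.0 and 13.6 in the untreated ones, where untreated library 3 was the low one. RPS6 and RPL5 had log2 ratios of -0.22 and -0.38, and their libraries overlapped. Of the 18 Diamond-Blackfan genes in this table none met the criteria, which 1.92% of all genes met.

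Other genes of protein synthesis are given beside these for scale. Of the ribosomal genes that the symbol rule leaves out, FAU, RPL36AL and RACK1 did not meet the criteria in either comparison. In Obese-MSCs versus Lean-MSCs, 2.07% of all genes were called high and 2.43% low, and with vitamin-C 1.11% and 0.806%. Of 72 genes of the mitochondrial ribosome 1 was high (MRPL40) and 1 low (MRPL9) in Obese-MSCs, and none was called with vitamin-C. Of 62 ribosome biogenesis genes 1 was high (UTP14A) and 1 low (GNL3) in Obese-MSCs, and 3 of 63 were low with vitamin-C (UTP14A, MPHOSPH10 and RRP1). None of 8 elongation factor genes was called in either comparison.

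UTP14A, which encodes a factor for assembly of the small subunit, was the gene of these lists called in both comparisons. It had 32.8, 30.3 and 24.9 normalized counts across the Obese libraries, against 19.2, 20.9 and 18.5 across the Lean libraries. In the second table it had 19.1, 23.2 and 19.7 with vitamin-C and 36.4, 34.3 and 27.5 without. The groups did not overlap in either table, at log2 ratios of 0.59 and -0.66, with exact permutation p = 0.1 in each and limma adjusted p-values of 0.742 and 1.00. Both comparisons used the same untreated Obese libraries, so a high level in these alone moves both ratios. GNL3, which encodes the nucleolar protein nucleostemin, had 12.3, 15.2 and 14.1 normalized counts across the Obese libraries, against 23.7, 21.8 and 20.6 across the Lean libraries, a log2 ratio of -0.67 (limma adjusted p = 0.708).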

How the data were processed

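The hMeDIP-seq libraries of 9 swine MSC samples were used. The authors aligned paired reads to susScr 11.1 with Bowtie 2 (2.3.3.1), removed duplicates with Picard (1.67), obtained exonic read counts per gene with HTSeq (0.9.1) and processed the counts with edgeR (3.28.1). The deposited values are normalized counts, a signal that is fractional and never negative. Low values lay near whole multiples of 1 step (within 0.1 step) for 34.8% to 100% of values per library, so whole reads were not recovered for all libraries, no count test was run, and no counting interval is given. A change of 5hmC in all genes alike would not be visible.

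The ribosomal protein genes, the other lists and the named genes were chosen with earlier results of these data known. Named are the genes past the criteria in either comparison, the 4 highest and 4 lowest ratios in each comparison among those with both group means above 3, the 3 highest and 3 lowest Lean levels, and genes fixed by role or as paralogues. RPS2, RPS28, RPL15, RPL27A, RPS9 and RPL24 were named after their values were seen. A few genes are counted but not reported individually here. Tests ran on all genes of a table. These were the paper's criteria, and limma 3.58.1 (R 4.3.3) with a trend on log2(value + 1) over the upper 80% of genes by mean, with Benjamini-Hochberg adjustment, which understates changes of low genes. For single genes the log2 ratio of the deposited group means is given where both exceed 3, with the p of an exact permutation test (two-sided, 20 arrangements). Where nothing ties libraries to separate animals, p-values measure the spread between these libraries, which may be technical. Gene positions and overlaps come from RefSeq for Sscrofa11.1. Level per coding length was planned, but only gene span was used here. Scipy 1.17.1, pandas 2.3.3, numpy 2.4.6 and matplotlib 3.10.9 under Python 3.11.15 did the rest, and the procedure was tested on simulated data. Alternatives were another p-value threshold, pseudocount, filter and scaling, and leaving out each library in turn.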

Additional observations from a re-analysis of the deposited data

How the results depend on the processing

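At a p-value threshold of 0.01, 0 ribosomal protein genes met the criteria in either comparison, where 1.14% and 0.348% of all genes still did. Leaving out each library in turn gave 3 to 6 genes past the criteria in Obese-MSCs versus Lean-MSCs and 1 to 3 with vitamin-C. Of all genes, 4.03% to 5.04% and 2.04% to 2.81% met the criteria in these runs. Without treated library 4 the 1 gene was RPL24, in place of RPL22 and RPL32. RPL22 and RPL32 were also both lost without treated library 6 and without untreated library 2, where other genes were called. The test on log2 values gave 3 genes in the first comparison, without RPS15A, and the upper 80% by mean gave 3, without RPS14. Under quantile normalization 7 genes, rather than 4, did not overlap with vitamin-C. In Obese-MSCs versus Lean-MSCs 8 genes, rather than 6, did not overlap under size factors, and 8 under quantile normalization. The share of all genes without overlap was not computed under these scalings. These counts therefore say nothing particular to the ribosomal protein genes. With limma 0 of these genes passed the adjusted threshold in either comparison under any pseudocount, filter, scaling or left-out library tried. Size factors changed no call by the criteria, and no called gene changed direction with size factors or a library left out. No paired analysis was run, because the labels do not tie treated cultures to untreated ones. If these cultures came from the same pigs, the vitamin-C tests left that pairing out. Values of a few reads limit what can be seen: 26.8% of the ribosomal protein genes had a 6-library mean of 3 or less in the first table (16.3% of all genes), and for these only large differences could separate the libraries.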
